A study of Mus musculus with 4 samples.

Results

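Growth factors that drive repair of the kidney tubule, and their receptors, were followed through single-cell RNA profiles of mouse kidney after ischemia-reperfusion (I/R) injury. The 10 genes described were the EGF receptor ligands Egf, Hbegf and Areg, the receptors Egfr and Erbb3, the pair Hgf and Met, and Igf1, Igfbp4 and Vegfa. They were chosen by name, and all 10 stood among the 31053 genes listed in each library. The 4 libraries came from kidneys of male C57BL/6 mice whose renal blood flow had been stopped and then restored, with 1 library per group. In the first group the mice had taken 1e9 colony-forming units of L. casei Zhang (Lac.z, a probiotic Lactobacillus) by gavage each day for 4 weeks before the injury, and kidneys were collected on day 5. The other groups had no Lac.z and were collected on days 5, 14 and 28. All groups had been injured, so no value stands for healthy kidney. The labels do not state the number of animals behind a library or what the other mice received in place of Lac.z.

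Ligands of the EGF family are made as membrane-bound precursors, are cut free by proteases, and activate the receptor EGFR on the same or neighbouring cells. EGFR signals through the ERK cascade, among others, while ERBB3 has a weak kinase of its own and works in pairs with other ERBB receptors. In the kidney, Egf is a product of the thick ascending limb and distal convoluted tubule, HGF comes from mesenchymal and myeloid cells and acts on MET of epithelium, and VEGF-A from epithelium maintains the peritubular capillaries. IGF-1 supports epithelial growth, and IGFBP-4 binds it and limits its access to receptors.

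Values are counts of unique molecular identifiers (UMIs), each standing for 1 captured RNA molecule. They were summed over the cells of a class in a library and scaled to the total UMIs of that class and library, as CPM. Every interval is an exact 95% interval for counting error only. With 1 library per group no difference has a replicate check, no test was possible and no p-value is given. A difference between groups cannot be told apart from one between animals or preparations. Ratios were formed in classes that held at least 50 cells in each library, for genes whose UMIs in the pair came to 50 or more (here called measured), and a 1.5-fold difference was the limit for a call. The day 5 library of mice that had no probiotic serves all 3 comparisons.

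The libraries held 8168 to 15583 barcodes and 76678882 to 104454319 UMIs, and 34263 cells were kept. The median barcode had 7874 UMIs in the Lac.z library, 8101.5 at day 5, 5590 at day 14 and 4864 at day 28, and its mitochondrial share was 14.3%, against 5.25%, 15.9% and 18.6%. Libraries shared 15 to 43 barcodes per pair. Clustering without the 10 genes and their pathway genes gave 28 clusters, of which 27 were named by markers into 14 classes. Proximal tubule-like cells had all 12 of their markers and numbered 3881 in the Lac.z library, 1422 at day 5, 5746 at day 14 and 9485 at day 28. Macrophage-like cells numbered 1537, 3289, 761 and 440 in the same order. A class of injured tubule-like cells, led by genes that included the tubular injury gene Havcr1, held 166, 90, 153 and 71. The cluster behind T cell-like cells also held natural killer genes and immunoglobulin RNA.

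The promoters of Egf (ENSMUSG00000028017, chr3:129677574-129755322, minus strand) and Areg (ENSMUSG00000029378, chr5:91139599-91148432, plus strand) are shown because these ligands were several-fold higher at day 28 than at day 5 in the class where each was highest. Both windows run from 250 bases before to 50 after the start and are taken from RefSeq on GRCm38.p6, at chr3:129755273-129755572 and chr5:91139349-91139648. Capitals mark a cyclic AMP response element, TGACGTCA, and a TATA box, TATAAA.
Egf: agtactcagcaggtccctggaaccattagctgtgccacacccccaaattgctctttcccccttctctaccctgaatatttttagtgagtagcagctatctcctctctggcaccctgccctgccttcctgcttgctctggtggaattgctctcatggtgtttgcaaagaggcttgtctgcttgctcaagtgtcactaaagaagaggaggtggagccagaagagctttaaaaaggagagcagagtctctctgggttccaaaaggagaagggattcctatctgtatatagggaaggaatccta
Areg: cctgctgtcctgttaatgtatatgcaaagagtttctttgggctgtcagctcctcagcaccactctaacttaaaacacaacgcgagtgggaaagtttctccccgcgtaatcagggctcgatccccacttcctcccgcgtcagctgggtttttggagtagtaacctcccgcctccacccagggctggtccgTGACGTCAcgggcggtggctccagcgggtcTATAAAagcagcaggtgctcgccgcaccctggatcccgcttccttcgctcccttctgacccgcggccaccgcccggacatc
The Areg window held TGACGTCA at positions 190 to 197, with its first base 61 bases before the start, and TATAAA at positions 220 to 225, 31 bases before it. On either strand of 32851 RefSeq promoters of 300 bases, TGACGTCA stood in 1.79% and TATAAA in 13.6%. Neither stood in the Egf window, and nor did the AP-1 motif TGANTCA (7.81% of promoters), the hypoxia response core ACGTG (19.6%) or the ERR half-site AAGGTCA (4.72%). These 3 were not in the Areg window either. A match describes the letters and says nothing of binding.

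**Figure D1:**
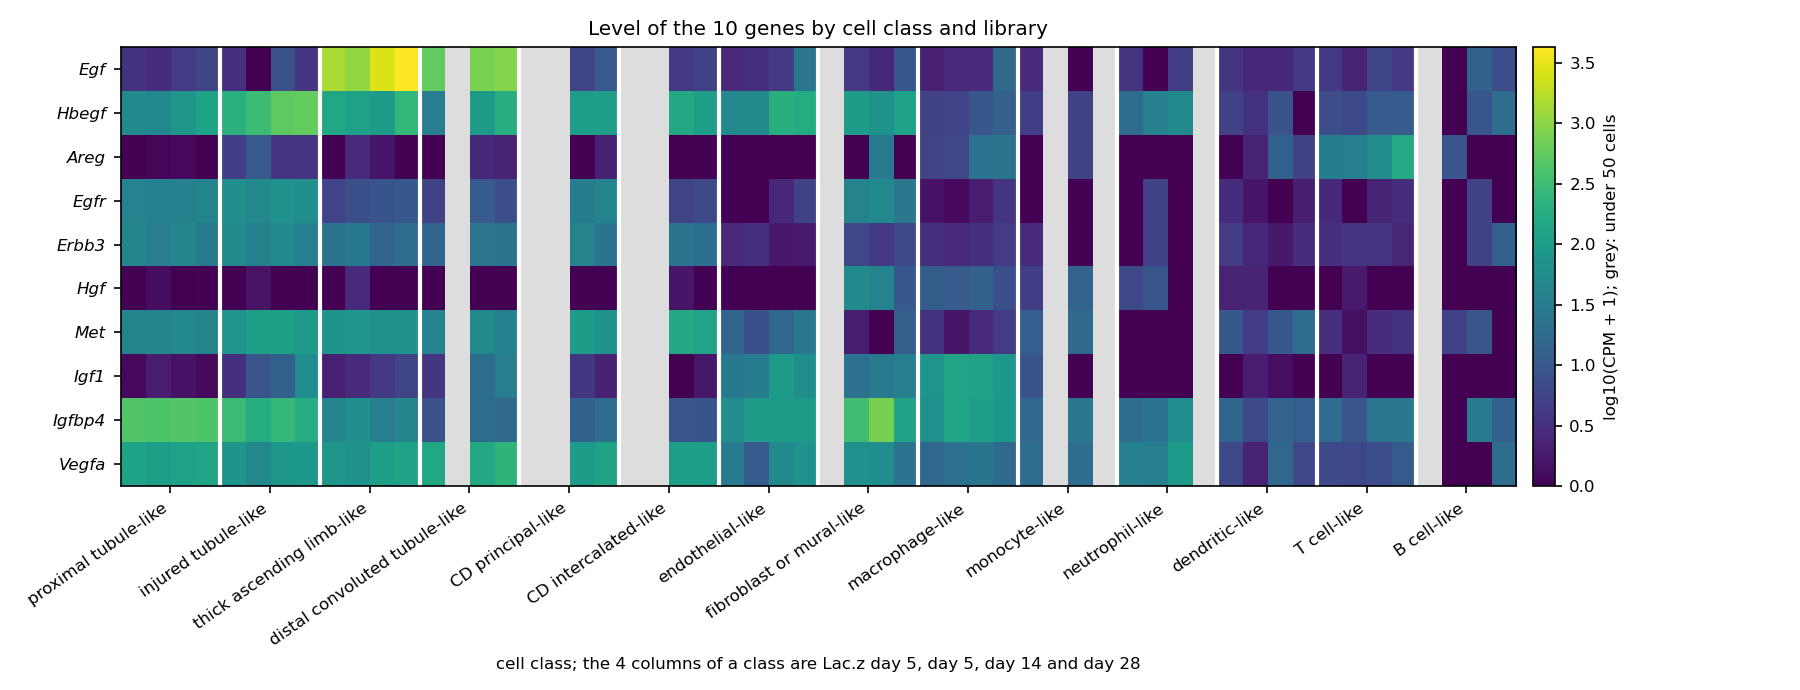
Level of the 10 genes (rows) in the 14 cell classes (columns) as log10(CPM + 1), with the 4 libraries of a class side by side from left to right as Lac.z day 5, day 5, day 14 and day 28; grey cells are classes under 50 cells. Egf was bright in thick ascending limb-like and distal convoluted tubule-like cells, up to 4270 CPM, Areg in T cell-like cells and Igf1 in macrophage-like cells. Igfbp4 was bright in proximal tubule-like cells and, at days 5 and 14, in fibroblast or mural-like cells.

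As the heat map of levels shows, Egf was found in the distal tubule, Hbegf was highest in injured tubule-like cells and Areg in T cell-like cells. Hgf was found mainly in fibroblast or mural-like and macrophage-like cells, and Igf1 was highest in macrophage-like cells. The receptors Erbb3 and Met were highest in tubule classes. Egfr was highest in injured tubule-like, proximal tubule-like and fibroblast or mural-like cells, and at day 28 also stood high in collecting duct principal-like cells. Over all pairs of a gene and a class, the 10 genes were higher in 4 and lower in 4 of 31 measured pairs with Lac.z at day 5, where 7.63% and 6.51% of all measured pairs were higher and lower. At day 14 they were higher in 16 and lower in 1 of 39 pairs, against 10.7% and 8.90% of all pairs. At day 28 they were higher in 17 and lower in 6 of 39 pairs, against 12.8% and 10.5%. Classes under 50 cells gave no ratio, so collecting duct and distal convoluted tubule-like cells are described by levels alone.

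Egf was higher at each later day in the cells that make it. Thick ascending limb-like cells had 1494.5 CPM (1386 UMIs in 63 cells) with Lac.z at day 5, against 1077.5 CPM at day 5 (643 UMIs in 50 cells). At day 14 they had 2722 CPM (4579 UMIs in 228 cells), and at day 28 4270 CPM (8912 UMIs in 337 cells). None of the 4 counting intervals overlapped, and the order was day 5, Lac.z day 5, day 14 and day 28 from low to high. Egf was 2.53-fold higher at day 14 than at day 5 (2.33 to 2.75) and 3.96-fold higher at day 28 (3.66 to 4.30), whereas the Lac.z ratio of 1.39 (1.26 to 1.53) did not reach 1.5. These 3 ratios share the day 5 cells, of which there were 50.

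Most of these cells carried Egf UMIs in every library. At least 1 Egf UMI was found in 88.9% of thick ascending limb-like cells with Lac.z, 70.0% at day 5, 77.2% at day 14 and 91.1% at day 28. After thinning each cell to 2000 UMIs, which left out 4, 2, 24 and 55 cells, the shares were 66.1%, 54.2%, 71.6% and 89.0%. The median cell had 12.96 Egf UMIs per 10000 with Lac.z, 3.65 at day 5, 15.8 at day 14 and 32.6 at day 28. Proximal tubule-like cells, taken as background, had Egf UMIs in 0.483% to 0.770% of thinned cells. Their median depth was 4616 to 7660 UMIs, against 5182.5 to 9430 in thick ascending limb-like cells.

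Markers of these cells were set beside Egf. Umod, which encodes the urinary protein uromodulin, stood at 14537 CPM with Lac.z, 12462 at day 5, 12227 at day 14 and 12642 at day 28, and all 7 thick ascending limb markers summed to 20891, 18784, 20718 and 21681 CPM. Egf UMIs per Umod UMI were 0.103 with Lac.z and 0.0865, 0.223 and 0.338 at days 5, 14 and 28. The injury gene Spp1, which encodes osteopontin, ran the other way, with 17583 CPM with Lac.z, 17274 at day 5, 4590 at day 14 and 3532 at day 28. The median mitochondrial share of these cells was 23.8% with Lac.z, 23.0% at day 5, 21.9% at day 14 and 11.8% at day 28, and its part in the result was not tested.

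**Figure D2:**
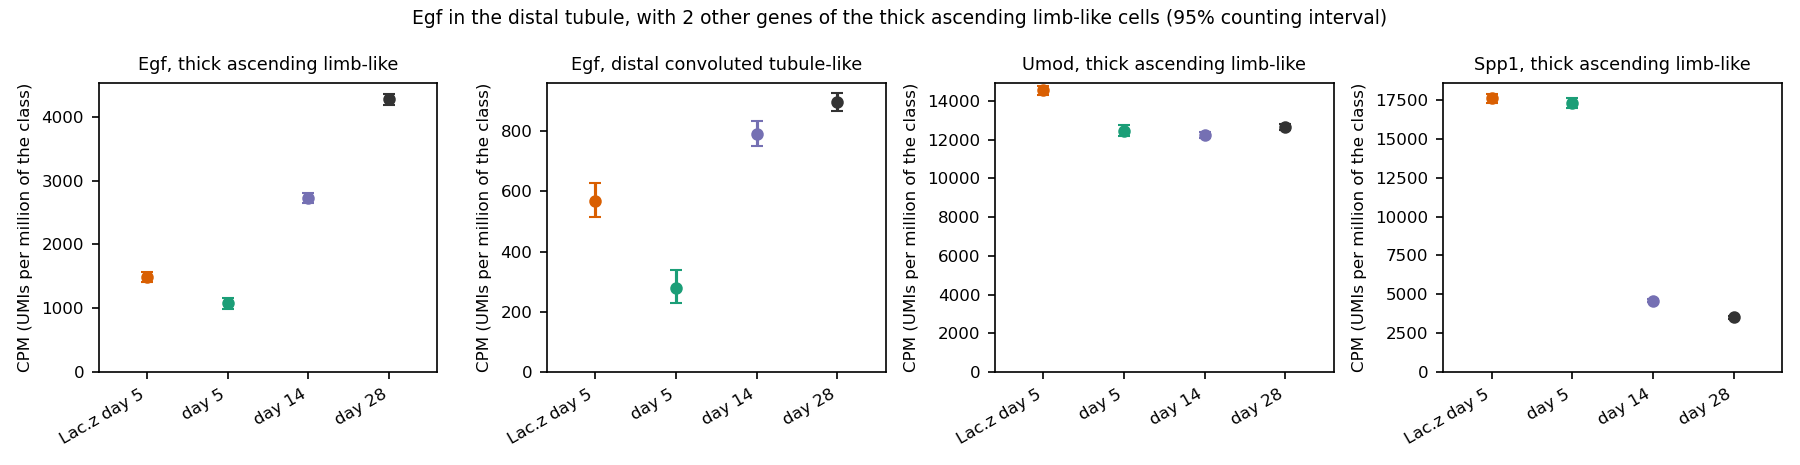
CPM of Egf in thick ascending limb-like and distal convoluted tubule-like cells, and of Umod and Spp1 in thick ascending limb-like cells, by library (Lac.z day 5, day 5, day 14, day 28); points are sums over cells and bars 95% counting intervals. Egf was higher at each later day in both cell classes while Umod stayed between 12227 and 14537 CPM and Spp1 was lower at days 14 and 28.

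Distal convoluted tubule-like cells showed the same order of Egf CPM, though not of Egf per Umod UMI. Their Egf was 568.5 CPM with Lac.z (515 to 627), 279.6 at day 5 (229 to 338, from 45 cells), 790.2 at day 14 (750 to 832) and 895.3 at day 28 (867 to 925). Thick ascending limb-like cells held 72.4%, 74.2%, 73.3% and 68.7% of all Egf UMIs of the 4 libraries, and distal convoluted tubule-like cells 21.2%, 12.4%, 23.0% and 28.2%. Slc12a3, the sodium-chloride cotransporter of these cells, had 7562 CPM with Lac.z, 4040 at day 5, 5808 at day 14 and 7711 at day 28, so the day 5 cells were also lowest in their own marker. The median mitochondrial share was 27.7% with Lac.z and 22.9%, 20.4% and 7.50% at days 5, 14 and 28, and its part was not tested. Egf UMIs per Umod UMI in distal convoluted tubule-like cells were 0.3996 with Lac.z and 0.1616, 0.5328 and 0.4406 at days 5, 14 and 28. By this ratio day 28 lay below day 14. Thick ascending limb was the next nearest class of their cluster by markers, and the part of its RNA in these levels was not tested. Elsewhere Egf was low. Endothelial-like cells had 1.78 Egf CPM in the Lac.z library and 2.21, 3.14 and 26.1 CPM at days 5, 14 and 28, the last from 32 UMIs in 12 cells. Thick ascending limb markers in endothelial-like cells summed to 14.2, 14.4, 102.0 and 66.8 CPM in the same order, and their part was not tested. Macrophage-like cells had 46 UMIs at day 28, of which 32 lay in 1 cell.

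In thick ascending limb-like cells 0 of 5 measured members were called with Lac.z, where 4.20% of all measured genes were higher and 8.55% lower. At day 14, 2 of 5 were higher (8.43% of all genes) and 1 lower (12.1%). At day 28, 3 of 6 were higher (16.4%) and 1 lower (7.93%). Hbegf was called higher at day 28, with 251.5 CPM against 119.0 CPM at day 5, but 58 of the 71 day 5 UMIs lay in 1 cell, and without the richest cell of each library its log2 ratio was 3.07 in place of 1.06. Vegfa was 1.77-fold higher at day 28 (1.27 to 2.51), a call lost when cells were weighted equally (log2 ratio 0.28 against 0.80). Of the pathway genes, the immediate early gene Egr1 was 2.92-fold higher with Lac.z, 4.66-fold at day 14 and 5.61-fold at day 28, and Fos was 4.00-fold higher at day 14. Errfi1, a feedback inhibitor of EGFR, was 2.95-fold higher with Lac.z, and the insulin receptor substrate Irs2 6.12-fold at day 28 (107 against 5 UMIs). The lowest were Timp3 (0.658) with Lac.z, Adam10 (0.555) and Erbb2 (0.559) at day 14, and Pappa (0.355) and Nrp1 (0.642) at day 28. ADAM10 is a protease that cuts EGF-family ligands free, and PAPP-A cleaves IGFBP-4.

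Hbegf, the heparin-binding ligand of EGFR (ENSMUSG00000024486, chromosome 18), was highest in injured tubule-like cells of every library. Its level there was 198.6 CPM with Lac.z (534 UMIs), against 311.8 at day 5 (578 UMIs), and 536.6 at day 14 (1465 UMIs) and 583.1 at day 28 (465 UMIs). The days 14 and 28 levels lay above both day 5 libraries. The ratio over day 5 was 1.72 at day 14 (1.56 to 1.90) and 1.87 at day 28 (1.65 to 2.12), past 1.5 under every alternative tried. With Lac.z it was 0.637 (0.565 to 0.718), but that call was lost under 7 of 10 alternatives, among them gating single cells by markers (log2 ratio -0.15). Injured tubule-like cells had 3.68 times the Hbegf of proximal tubule-like cells with Lac.z (3.33 to 4.05), 6.32 times at day 5, 6.57 times at day 14 and 4.56 times at day 28.

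In proximal tubule-like cells Hbegf stood at 54.0 CPM with Lac.z, 49.3 at day 5, 81.6 at day 14 and 127.8 at day 28. It was 1.66-fold higher at day 14 (1.52 to 1.81), a call lost when cells were weighted equally (log2 ratio 0.21), and 2.59-fold higher at day 28 (2.38 to 2.82) under all 12 alternatives. By segment, cells with S1 genes had 66.5 CPM with Lac.z and 54.0, 86.5 and 142.6 CPM at days 5, 14 and 28. S2 cells had 44.9, 58.9, 39.2 and 91.8 CPM, and S3 cells 43.9, 70.3, 102.0 and 124.7 CPM, in the same order. All 3 segments were highest at day 28. The S2 value at day 14 and the Lac.z values in S2 and S3 lay below those of day 5.

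The same gene was split within the class by cluster. Cluster 3, led by genes that included Slc5a12 and Slc5a2, and cluster 4, led by genes that included Pdk4 and Angptl4, together held 1919 cells with Lac.z, 470 at day 5, 1327 at day 14 and 2212 at day 28. Hbegf in them was 77.3 CPM with Lac.z, 80.6 at day 5, 152 at day 14 and 235 at day 28, against 17.4, 20.3, 22.2 and 34.7 CPM in the other proximal tubule-like clusters. The ratio between the 2 sets of clusters was 4.43 (3.85 to 5.12) with Lac.z, 3.96 (3.25 to 4.87) at day 5, 6.83 (6.24 to 7.49) at day 14 and 6.78 (6.36 to 7.23) at day 28. Within clusters 3 and 4 Hbegf was 2.92-fold higher at day 28 than at day 5 (2.66 to 3.22), and within the others 1.71-fold. The split was also seen inside segments. In S1 cells Hbegf was 82.5 CPM with Lac.z and 69.1, 126.7 and 201.2 CPM at days 5, 14 and 28 in clusters 3 and 4, against 22.1, 26.3, 16.5 and 38.0 CPM in the others. In S3 cells it was 54.2, 94.4, 163.3 and 200.1 CPM, against 15.9, 14.0, 40.5 and 30.7 CPM. Clusters 3 and 4 were deeper, with median UMIs of 9824 with Lac.z and 10705, 14937 and 11963 at days 5, 14 and 28, against 5648, 5037, 4500 and 3589 in the others. Their median mitochondrial shares were 15.4%, 17.98%, 11.2% and 11.6%, against 22.9%, 23.4%, 19.7% and 21.6%. Fos was also far higher in them, at 1255, 955, 2556 and 1187 CPM against 37.3, 59.2, 147 and 96.9 CPM, and the part of depth and cell quality was not tested. This split was made after the clusters had been seen.

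**Figure D3:**
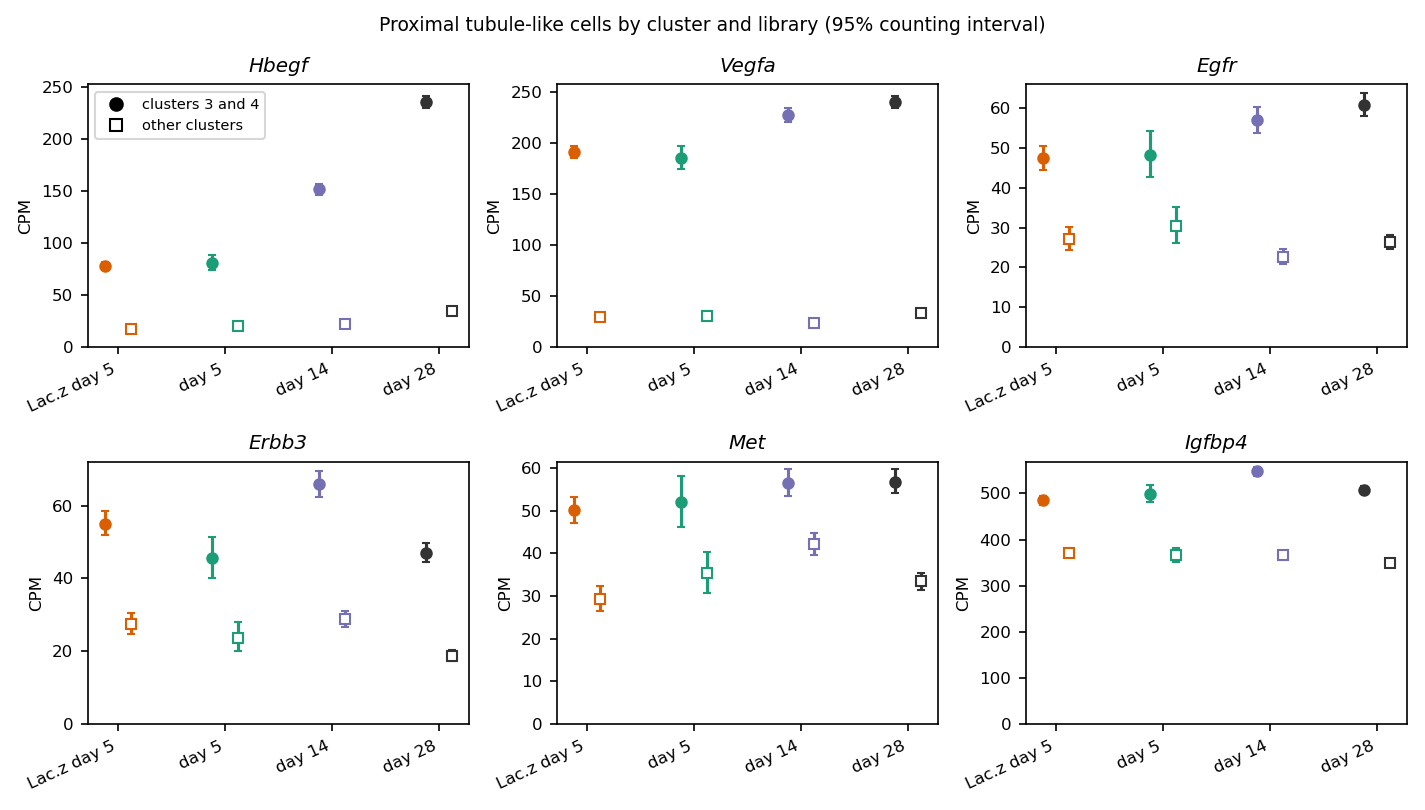
CPM of 6 of the genes in proximal tubule-like cells by library (Lac.z day 5, day 5, day 14, day 28), with filled circles for clusters 3 and 4 and open squares for the other clusters; bars are 95% counting intervals. The 2 sets lay apart in every library for each gene, most for Vegfa (6.09-fold to 9.84-fold) and Hbegf (3.96-fold to 6.83-fold) and least for Igfbp4 (1.31-fold to 1.498-fold).

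Endothelial-like cells also carried Hbegf, at 51.6 CPM with Lac.z (29 UMIs), 54.1 at day 5 (49 UMIs), 196.2 at day 14 (250 UMIs) and 175.1 at day 28 (215 UMIs). It was 3.63-fold higher at day 14 (2.66 to 5.03) and 3.24-fold higher at day 28 (2.36 to 4.51). Fos stood beside it at 1184, 1106, 3917 and 3270 CPM in these cells, and Egr1 at 770, 575, 2463 and 2341 CPM. Both are immediate early genes, which the enzymatic digestion used to free cells is also known to induce, and their part in the Hbegf levels was not tested. Among classes with few cells, Hbegf was 109 CPM in collecting duct principal-like cells at days 14 and 28, and 190.3 CPM in distal convoluted tubule-like cells at day 28, where 267 of 776 UMIs lay in 1 cell. In macrophage-like cells it was low, at 4.18 CPM with Lac.z, 4.48 at day 5, 8.42 at day 14 and 12.2 at day 28.

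Areg, which encodes amphiregulin, a low-affinity EGFR ligand made by type 2 and regulatory lymphocytes in tissue repair, was highest in T cell-like cells. It had 33.9 CPM with Lac.z (64 UMIs), 35.7 at day 5 (84 UMIs), 56.8 at day 14 (206 UMIs) and 163.8 at day 28 (334 UMIs). The day 28 level stood apart from the other 3. The ratio over day 5 was 0.950 with Lac.z (0.675 to 1.33), 1.59 at day 14 (1.23 to 2.08) and 4.59 at day 28 (3.604 to 5.90). The day 14 call was lost under 3 alternatives, while that of day 28 held under all 11 and was larger when cells were gated one by one (log2 ratio 4.05 against 2.19).

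Within the class, 2 small sets of cells held most of these UMIs. Cells with Foxp3, the transcription factor of regulatory T cells, had 239.7 Areg CPM with Lac.z (5 cells), 82.8 at day 5 (7 cells), 248.1 at day 14 (22 cells) and 1429 at day 28 (23 cells; 1183 to 1711). At day 28, 17 of these 23 cells had an Areg UMI, against 10 of 22 at day 14 and 1 of 7 at day 5. With Lac.z all 10 UMIs lay in 1 of the 5 cells. Cells with Il1rl1 or Il17rb, receptors of type 2 lymphocytes, and no Cd3e or Cd3g had 937.7 CPM with Lac.z (7 cells), 1862 at day 5 (6 cells), 1278 at day 14 (9 cells) and 2055 at day 28 (13 cells). The Foxp3 cells thus had their highest level at day 28, whereas the Il1rl1 or Il17rb cells were high in all 4 libraries. Among the latter, 4 of 7 cells had an Areg UMI with Lac.z, 4 of 6 at day 5, 7 of 9 at day 14 and 9 of 13 at day 28. Of their 31 UMIs with Lac.z, 22 lay in 1 cell.

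The shares of the class's Areg UMIs shifted with this. Foxp3 cells held 15.6% of them with Lac.z, 4.76% at day 5, 15.5% at day 14 and 35.3% at day 28, and the Il1rl1 or Il17rb cells 48.4%, 65.5%, 41.7% and 25.7%. Cells with Cd8a or Cd8b1, the most numerous gate with 169, 202, 356 and 212 cells, had 1.93, 0, 8.15 and 1.21 CPM, where 3 UMIs at day 5 would have been 2.66 CPM. Of the 112 Areg UMIs at day 28 in cells of no gate, 50 lay in 1 cell. These gates rest on single detected UMIs and were chosen after the levels had been seen.

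**Figure D4:**
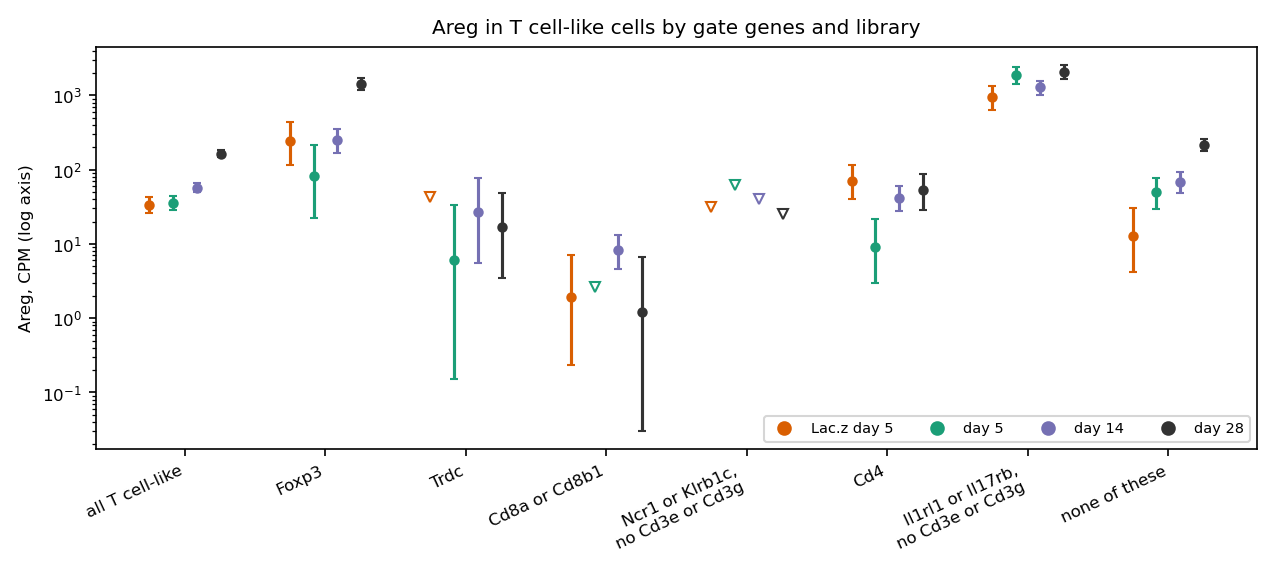
Areg CPM (log axis) in all T cell-like cells and in cells gated by the genes under the axis, by library (Lac.z day 5, day 5, day 14, day 28); bars are 95% counting intervals and open triangles mark the level of 3 UMIs where none was found. Cells with Foxp3 reached 1429 CPM at day 28 against 82.8 CPM at day 5, and cells with Il1rl1 or Il17rb were between 937.7 and 2055 CPM.

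In T cell-like cells 1 of 2 measured members was higher with Lac.z, Igfbp4, where 5.30% of all genes were higher and 5.84% lower. At day 14, 3 of 3 were higher (7.28% of all genes) and 0 lower (5.73%), and at day 28, 2 of 2 were higher (9.89%) and 0 lower (6.31%). Besides Areg and Igfbp4, the day 14 members included Hbegf, with 37 against 13 UMIs and a ratio of 1.85 (0.959 to 3.79). Of those 37 Hbegf UMIs, 18 lay in 1 cell. The Igfbp4 counts were small, 36 UMIs with Lac.z, 19 at day 5, 94 at day 14 and 55 at day 28. Proximal tubule genes moved with them: all 12 were detected and summed to 831.9 CPM with Lac.z, 393.0 at day 5, 2093 at day 14 and 2941 at day 28, and their part in the Igfbp4 result was not tested. Timp3 and Igfbp7, which tubule and vessel cells make in quantity, were the 2 pathway genes with the highest ratios in T cell-like cells in all 3 comparisons (Timp3 10.1, 14.5 and 23.4; Igfbp7 3.29, 5.17 and 6.39). Macrophage-like cells had Areg at 4.597 CPM with Lac.z, 4.96 at day 5, 23.3 at day 14 and 23.9 at day 28. Of the 65 UMIs at day 28, 51 lay in 1 cell, and the day 28 log2 ratio of 2.29 turned to -0.37 in macrophage cluster 0 alone. In cluster 1, with Arg1 and Gpnmb, Areg was 15.2 CPM with Lac.z and 4.16, 139 and 274 CPM at days 5, 14 and 28. At day 14, 15.9% of its 63 cells had an Areg UMI, against 1.60% at day 5. The 60 Areg UMIs of cluster 1 at day 28 lay in 10.5% of 19 cells, and the cell with 51 UMIs was among these. Of the 180 UMIs of the whole class at day 14, 50 lay in 1 cell. Cycling cluster 2 had 1.95, 21.5, 11.3 and 0 CPM in the same order, and cluster 6 had 0.311, 4.33, 0 and 0 CPM.

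Egfr (ENSMUSG00000020122, chr11:16752203-16913907) was level across libraries in proximal tubule-like cells, with 39.6 CPM with Lac.z, 39.0 at day 5, 38.4 at day 14 and 42.3 at day 28. Its day 28 ratio was 1.09 (0.983 to 1.20). Injured tubule-like cells had more, at 62.1, 49.6, 68.9 and 61.4 CPM, and fibroblast cluster 18 had 82.9, 43.9, 63.3 and 52.5 CPM. Collecting duct principal-like cells had 33.7 CPM with Lac.z (25 cells), 16.2 at day 5 (24 cells), 33.4 at day 14 (62 cells) and 42.2 at day 28 (74 cells). The thick ascending limb-like cells that were richest in Egf had only 4.31 to 9.10 Egfr CPM. Within proximal tubule-like cells, clusters 3 and 4 had 1.76, 1.59, 2.53 and 2.31 times the Egfr of the others. In S1 cells Egfr was 41.0 CPM with Lac.z and 42.2, 51.5 and 56.1 CPM at days 5, 14 and 28, whereas in S2 cells it was 42.8, 42.9, 27.7 and 32.0 CPM.

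Erbb3 (ENSMUSG00000018166, chr10:128567523-128589635) was found in every tubule class, those low in Egfr among them. Its level in thick ascending limb-like cells was 23.7 CPM with Lac.z and 28.5, 14.3 and 18.7 CPM at days 5, 14 and 28. Proximal tubule-like cells had 44.4 CPM with Lac.z, 34.2 at day 5, 45.8 at day 14 and 31.9 at day 28, within 1.34-fold of day 5. In clusters 3 and 4 it was 55.1, 45.6, 65.9 and 47.1 CPM, against 27.5, 23.8, 28.7 and 18.8 CPM in the others. Its calls elsewhere rested on few UMIs: the 0.656-fold value in thick ascending limb-like cells at day 28 (39 against 17 UMIs) turned upward when cells were weighted equally, and the macrophage-like value of 1.89 had 9 against 78 UMIs.

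In proximal tubule-like cells 0 of 7 measured members were called with Lac.z, where 5.75% of all genes were higher and 3.23% lower. At days 14 and 28, 2 of 7 were higher, Hbegf and Egf, against 8.20% and 6.31% of all genes, and 0 lower, against 7.15% and 8.07%. The Egf call rested on 155 and 288 UMIs against 23 at day 5, at the background level given above. Of the other pathway genes, Fos (1.60-fold) and Pappa (3.08-fold) had the highest ratios with Lac.z, and the ERK feedback genes Spry4 (0.601) and Phlda1 (0.641) the lowest. At day 14, Igfbp1 was 3.42-fold higher (2.90 to 4.06) and Erbb4 10.3-fold (80 against 2 UMIs, 2.77 to 86.9), and Phlda1 (0.408) and Spry2 (0.543) were lowest. At day 28 the urokinase receptor Plaur (0.171) and urokinase Plau (0.388), which activates HGF, had the lowest ratios. By list, 3 of 8 measured HGF and MET axis genes were lower at day 28 and 0 higher, with a median log2 ratio of -0.04 beside 0.00 for all genes. Of the ERK early and feedback genes, 6 of 14 were higher and 2 lower at day 14, with a median of -0.27 beside 0.02 for all genes, and 3 were higher and 2 lower at day 28.

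In injured tubule-like cells 2 of 6 measured members were higher and 1 lower with Lac.z, in a class where 13.6% of all genes were higher and 15.8% lower. At day 14, 2 of 6 were higher (18.3% of all genes) and 0 lower (9.72%), and at day 28, 3 of 7 were higher (19.1%) and 0 lower (8.36%). Igfbp4 was 1.68-fold higher with Lac.z (1.47 to 1.91), at 293.8 CPM against 175.3 at day 5, a call lost without a mitochondrial limit and without doublet removal (log2 ratios 0.46 and 0.42). Vegfa was 1.57-fold higher in the Lac.z library, 1.74-fold at day 14 and 1.84-fold at day 28, and lost each call when single cells were gated. Igf1 was 6.97-fold higher at day 28 (45 against 15 UMIs, 11 of the 15 in 1 cell). Podocyte markers moved with it, with 6 of 6 detected at day 28 and a sum of 183.1 CPM, against 5 of 6 and 28.6 CPM at day 5. Fibroblast or mural markers did so too, with 7 of 8 and 166.8 CPM at day 28 against 5 of 8 and 4.86 CPM at day 5. Lum was at 0 in all 4 libraries, and the part of these markers was not tested. Pathway genes with the lowest ratios included Phlda1 (0.223) and Dusp5 (0.314) with Lac.z, Spry2 (0.377) and Fosl1 (0.404) at day 14, and Plaur (0.300) and Spint1 (0.531) at day 28. The highest besides the members were Insr (2.76) and Timp3 (2.40) with Lac.z, Fos (3.64) and Irs2 (2.85) at day 14, and Irs2 (3.51) at day 28.

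Met, the HGF receptor (ENSMUSG00000009376, chr6:17463349-17573980), had its highest levels in epithelial classes. Intercalated-like cells had 111.1 CPM with Lac.z, 197.9 at day 5, 155.2 at day 14 and 130.7 at day 28, and injured tubule-like cells 80.3, 112.2, 114.3 and 87.8 CPM. Collecting duct principal-like cells had 67.4 CPM with Lac.z (45.5 to 96.2), 36.4 at day 5 (21.6 to 57.5, from 24 cells), 93.6 at day 14 (76.0 to 114) and 69.2 at day 28 (52.6 to 89.2), so the day 5 and day 14 intervals lay apart. Intercalated-like cells went the other way, as their day 5 interval (160 to 242, from 23 cells) lay above those of Lac.z (83.7 to 145) and day 28 (118 to 145). Proximal tubule-like cells had 42.0, 43.3, 48.8 and 44.3 CPM in the order of the libraries above, so injured tubule-like cells had 1.91 to 2.59 times as much. Among segments Met was highest in S3, at 53.3 CPM with Lac.z and 58.3, 62.2 and 59.8 at days 5, 14 and 28, against 43.1, 42.2, 43.2 and 41.1 in S1. The S1 level was 0.808, 0.725, 0.695 and 0.688 times that of S3, with every interval below 1. In macrophage-like cells Met was 3.91-fold higher with Lac.z (2.38 to 6.54), from 46 against 27 UMIs, that is 2.38 against 0.608 CPM.

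Hgf (ENSMUSG00000028864, chr5:16553495-16619439) was absent or nearly so from epithelium, with at most 4 UMIs in any tubule class and library. Macrophage-like cells had 10.95 CPM with Lac.z (212 UMIs), 9.91 at day 5 (440 UMIs), 12.2 at day 14 (94 UMIs) and 6.63 at day 28 (18 UMIs). Of the 3 ratios 0 reached 1.5, but the lower day 28 level (3.93 to 10.5) lay close to that limit. Fibroblast or mural-like cells had 8.99 CPM with Lac.z (3 UMIs), 52.5 at day 5 (53 UMIs), 42.8 at day 14 (28 UMIs) and 8.71 at day 28 (3 UMIs). The day 28 ratio over day 5 was 0.166 (0.0332 to 0.512). The makeup of the class differed with it: collagen-rich cluster 18 had 11 cells with Lac.z and 46, 36 and 11 at days 5, 14 and 28, while cluster 27, with Ren1 and Rgs5, had 9, 8, 20 and 39. In cluster 18 alone Hgf was 13.8 CPM with Lac.z, 56.7 at day 5, 53.4 at day 14 and 26.2 at day 28.

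Fibroblast or mural-like cells gave no Lac.z ratio because that library had 20 of them. Of 5 measured members 1, Igfbp4, was higher at day 14, where 15.4% of all genes were higher and 8.01% lower, and 3 of 5 were lower at day 28, where 21.2% of all genes were higher and 23.0% lower. Igfbp4 had 331.7 CPM at day 5, 756.5 at day 14 and 127.7 at day 28, and in cluster 18 alone 356.5, 972.8 and 297.5 CPM at days 5, 14 and 28. The ratio of the whole class at day 28 was 0.385 (0.274 to 0.528); within cluster 18 the levels of days 28 and 5 lay closer to each other than in the class.

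Igf1 (ENSMUSG00000020053, chr10:87858265-87937047) was foremost a macrophage gene. Macrophage-like cells had 80.7 CPM with Lac.z (1563 UMIs), 132.1 at day 5 (5866 UMIs), 121.3 at day 14 (936 UMIs) and 85.1 at day 28 (231 UMIs). The Lac.z and day 28 levels lay below the other 2. The ratio over day 5 was 0.611 with Lac.z (0.578 to 0.646), past 1.5-fold under all 12 alternatives, 0.918 at day 14 and 0.644 at day 28 (0.562 to 0.734), where 4 of 12 alternatives lost the call. After thinning to 2000 UMIs, 9.73% of cells had an Igf1 UMI with Lac.z, 17.1% at day 5, 19.5% at day 14 and 13.9% at day 28, against 29.3%, 44.6%, 44.3% and 25.0% before it.

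Igfbp4 (ENSMUSG00000017493, chr11:99040005-99052655) had the same order of libraries as Igf1 in the macrophage-like class as a whole. It had 66.0 CPM with Lac.z, 137.7 at day 5, 102.8 at day 14 and 86.5 at day 28. The ratio with Lac.z was 0.479 (0.451 to 0.509), again held under all 12 alternatives, and that at day 28 0.629 (0.549 to 0.716), lost under 2. The macrophage states differed between the libraries: cluster 6, with interferon-induced genes, made up 55.0% of macrophage-like cells with Lac.z and 2.83% at day 5, and cluster 1, with Arg1 and Gpnmb, 15.6% and 41.7%. Within each state the direction was the same. In cluster 0 the Lac.z ratio was 0.506 for Igf1 (0.435 to 0.587) and 0.495 for Igfbp4 (0.430 to 0.568), and in cluster 6 it was 0.507 (0.426 to 0.606) and 0.526 (0.442 to 0.629). In cluster 1 Igf1 was closer to day 5, at 0.834 (0.761 to 0.913), while Igfbp4 stood at 0.366 (0.318 to 0.419). In cycling cluster 2 they were 0.909 (0.726 to 1.14) and 0.520 (0.422 to 0.637). At day 14 the 2 genes parted in cluster 1, where the ratio over day 5 was 0.909 for Igf1 (0.761 to 1.08) and 0.227 for Igfbp4 (0.155 to 0.320).

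**Figure D5:**
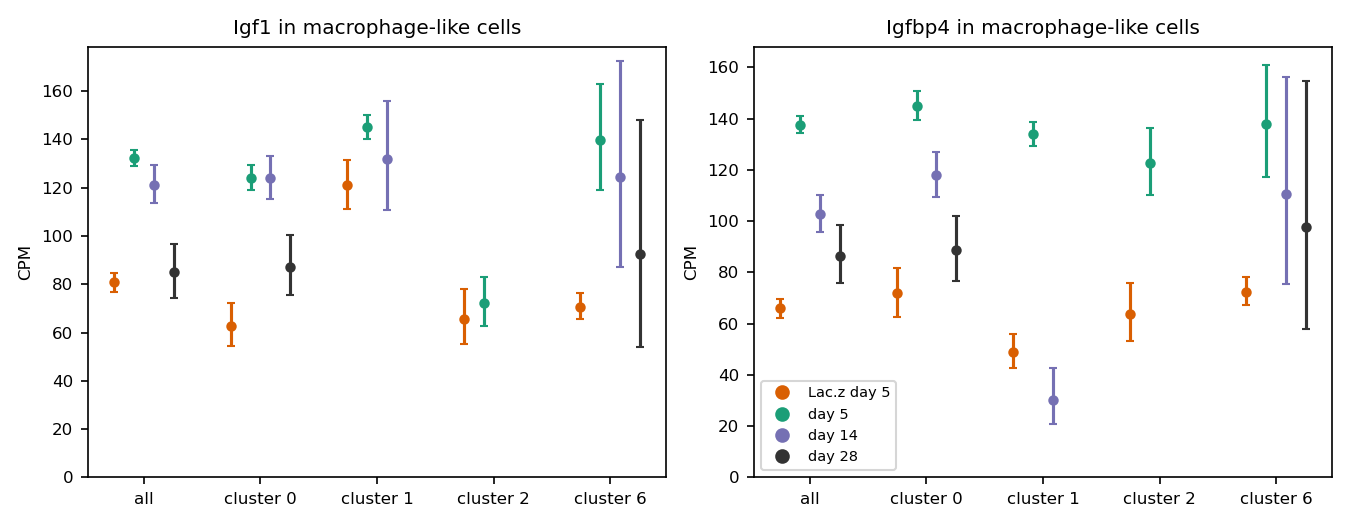
CPM of Igf1 (left) and Igfbp4 (right) in all macrophage-like cells and in their 4 clusters by library (Lac.z day 5, day 5, day 14, day 28), with 95% counting intervals; clusters with under 20 cells in a library are not drawn. Both genes were lower with Lac.z than at day 5 in clusters 0, 1 and 6 with separate intervals, and Igfbp4 also in cluster 2.

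In macrophage-like cells 1 of 9 measured members was higher and 2 lower with Lac.z, where 9.39% of all genes were higher and 2.82% lower. At day 14, 2 of 8 were higher (11.0% of all genes) and 0 lower (10.6%), and at day 28, 4 of 8 were higher (16.3%) and 2 lower (12.7%). All 12 proximal tubule markers were detected in them, with sums of 451.0 CPM with Lac.z, 99.96 at day 5, 956.7 at day 14 and 2474 at day 28, and these values stand beside the calls of Egf, Hbegf, Met and Erbb3, whose levels were all under 25 CPM. Beyond the members, Kdr (5.89) and Timp3 (4.66) had the highest Lac.z ratios, and Nrg1, a ligand of ERBB3, was 0.589. At day 14 Timp3 was 6.23-fold higher, and Spry2 (0.186) and the IGF-2 receptor Igf2r (0.352) were lowest. At day 28 Timp3 was 11.5-fold higher, and Igfbp6 (0.134) and Ier3 (0.204) were lowest.

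Outside macrophages, Igf1 in endothelial-like cells was 28.4 CPM with Lac.z, 32.0 at day 5, 92.6 at day 14 and 64.3 at day 28. The day 14 and day 28 ratios of 2.89 and 2.01 were lost without doublet removal (log2 ratios 0.03 and -0.19). In distal convoluted tubule-like cells Igf1 was 2.80 CPM with Lac.z, 13.1 at day 5, 18.1 at day 14 and 35.1 at day 28, from 2, 5, 33 and 143 UMIs. In proximal tubule-like cells Igfbp4 stood at 441.4 CPM with Lac.z and 430.3, 449.5 and 423.0 at days 5, 14 and 28, and its 3 ratios over day 5 lay between 0.983 and 1.04. It was lower in each later segment, with 531.6, 525.9, 587 and 531.1 CPM in S1, 447.5, 466.7, 429 and 424.4 in S2 and 357.5, 352.7, 350 and 292.7 in S3. The S1 level was 1.49, 1.49, 1.68 and 1.81 times that of S3. Injured tubule-like cells had 0.666, 0.408, 0.585 and 0.418 times the Igfbp4 of proximal tubule-like cells.

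Vegfa (ENSMUSG00000023951, chr17:46016993-46032377), the main growth factor of capillaries, was found throughout the epithelium. Proximal tubule-like cells had 128.4 CPM with Lac.z, 104.9 at day 5, 117.1 at day 14 and 129.1 at day 28, within 1.23-fold of day 5. Distal convoluted tubule-like cells had 151.2, 99.3, 154.3 and 231.1 CPM, and thick ascending limb-like cells 82.0, 70.4, 112.4 and 124.6 CPM. Within the proximal tubule the gene was concentrated in clusters 3 and 4, at 191 CPM with Lac.z, 185 at day 5, 228 at day 14 and 240 at day 28, against 29.2, 30.4, 23.1 and 32.9 CPM in the others. In S3 cells alone it was 194.6, 236.0, 228.2 and 244.8 CPM in clusters 3 and 4, against 32.6, 24.0, 25.6 and 32.7 CPM. Over all proximal tubule-like cells the difference was 6.57-fold (5.91 to 7.32), 6.09-fold, 9.84-fold and 7.30-fold. Bnip3, a hypoxia-induced gene, was not split this way, at 118, 98.4, 151 and 109 CPM against 145, 129, 138 and 116 CPM.

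Endothelial-like cells had 30.2 Vegfa CPM with Lac.z (17 UMIs), 9.94 at day 5 (9 UMIs), 51.8 at day 14 (66 UMIs) and 68.4 at day 28 (84 UMIs). The ratio was 5.21 at day 14 (2.59 to 11.9) and 6.88 at day 28 (3.46 to 15.6), with log2 values of 0.80 and 0.89 without doublet removal in place of 2.25 and 2.65. All 12 proximal tubule markers were found in these cells, with sums of 810.7 CPM with Lac.z, 358.9 at day 5, 1250 at day 14 and 3350 at day 28, and their part was not tested. Of the measured members 0 of 2 were higher and 1 lower with Lac.z (5.82% and 5.00% of all genes), 3 of 4 were higher and 0 lower at day 14 (10.1% and 6.43%), and 3 of 4 were higher and 0 lower at day 28 (10.7% and 9.16%). With Lac.z, Phlda1 (1.79) and Timp3 (1.67) had the highest pathway ratios and Igfbp4 (0.597) and Igfbp7 (0.646) the lowest, but Igfbp4 turned upward without doublet removal (log2 ratio 0.21 in place of -0.72). Egr1 was 4.28-fold higher at day 14 and 4.07-fold at day 28, when Insr (0.572) and Spred1 (0.607) were lowest. In macrophages, Vegfa was highest in cluster 1, at 45.1 CPM with Lac.z, 39.6 at day 5, 115.7 at day 14 and 123.5 at day 28 (19 cells), while the class as a whole had 16.1, 21.9, 24.5 and 16.2 CPM.

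Each member was set beside the genes whose level was most like it over 46 points, each a class in a library with at least 50 cells, by Pearson's r of log2(CPM + 10). Points of 1 library share its depth, and points of 1 class its cells, so r is a description. Egf was most like Gpx6 (0.983), the nuclear receptor gene Esrrb (0.978) and Ppp1r1a (0.975), the last of them a thick ascending limb marker. Vegfa was most like Bnip3 (0.905), Gabarapl1 (0.899) and March8 (0.879), although Bnip3 did not share its split within the proximal tubule. Areg was nearest to the lymphocyte genes Tcrg-C1 (0.845), Cd4 (0.844) and Cd160 (0.840). Egfr was nearest to H6pd (0.960), F3 (0.894) and Rhbdf1 (0.886), which regulates the protease that frees EGFR ligands, and Hbegf to Amotl2 (0.904), Il17rc (0.895) and Cttn (0.888). Met was nearest to Kif21a (0.933), Cxadr (0.928) and Cdh16 (0.918), and Erbb3 to Myo5b (0.955), 2310030G06Rik (0.951) and Oplah (0.949). Hgf was nearest to Olfml3 (0.896), Steap3 (0.889) and Tnfsf13b (0.888). Igf1 had r = 0.841 with Prune2 and 0.811 with Itga9, and Igfbp4 had r = 0.903 with Tm7sf3 and 0.846 with Fads3. Among the members themselves Egf and Hbegf had r = 0.339, and Hbegf and Vegfa 0.778.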

How the data were processed

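The deposited matrices hold raw UMI counts per gene and cell barcode. Reads were aligned to mm10 per the submitters' processing notes. Per the file headers the counting software was at 3.0.2 when the 2 early matrices were made and at 3.1.0 for the later ones, so software and time cannot be told apart.

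Barcodes with at least 200 genes, at most 50% mitochondrial and at most 1% haemoglobin UMIs were kept. Doublets were scored with Scrublet (scanpy 1.11.5), and the highest scores were removed at 0.8% per 1000 barcodes, because its own threshold marked 18 barcodes in the Lac.z library. Cells were clustered jointly (2000 variable genes without the 10 genes and 75 pathway genes of 7 lists, 30 components, 20 neighbours, Leiden resolution 1) and named from 18 marker lists. UMIs were summed per class and library; ratios carry exact conditional binomial intervals. Proximal tubule cells were given segments by S1, S2 and S3 genes, and 4031 lay near that limit.

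The genes and lists were chosen with earlier results of these data known, and marker and pathway lists were partly taken over from an earlier analysis of them. Pathway genes named are, per class and comparison, the 2 highest and 2 lowest ratios past 1.5-fold, and like genes the 3 with the highest r among genes with at least 200 UMIs, of which 2 are not reported here. In simulated counts with 200 genes changed 2-fold between the Lac.z and day 5 libraries, 100% were recovered in proximal tubule-like and 99.5% in macrophage-like cells. Only these large classes were simulated, so recovery in the smaller classes is not known. Intervals cover counting error only. Alternatives were other mitochondrial limits, no doublet removal, Leiden resolution 2, gating single cells by markers, cells weighted equally, other size factors, and other UMI minimums and folds.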

Additional observations from a re-analysis of the deposited data

Results flagged for a closer look

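Genes are listed here whose ratio passed 1.5-fold upward in one class and downward in another under the same comparison. The differences between classes were not tested, since each group is 1 library. Values are log2 ratios with 1 UMI added.

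Igfbp4 had the most such pairs. With Lac.z over day 5 it was 0.742 in injured tubule-like and 1.205 in T cell-like cells, against -0.717 in endothelial-like and -1.061 in macrophage-like cells. The endothelial-like value was 0.207 without doublet removal. At day 14 it was 1.188 in fibroblast or mural-like, 1.194 in dendritic-like and 1.623 in T cell-like cells, against -0.798 in thick ascending limb-like cells. The dendritic-like value was -0.320 at a mitochondrial limit of 25%. At day 28 it was 1.693 in T cell-like cells, against -1.349 in fibroblast or mural-like and -0.664 in macrophage-like cells. Proximal tubule markers stood beside the T cell-like values, as given above.

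Igf1 at day 28 was 2.74 in injured tubule-like and 0.976 in endothelial-like cells, against -0.629 in macrophage-like cells. Vegfa at day 28 was 2.648 in endothelial-like, 0.887 in injured tubule-like and 0.795 in thick ascending limb-like cells, against -1.345 in fibroblast or mural-like cells. Erbb3 at day 28 was 1.049 in macrophage-like and -0.654 in thick ascending limb-like cells, on 9 and 39 UMIs, and the second was 0.365 with cells weighted equally. Without doublet removal the endothelial-like Igf1 value was -0.192, and with single cells gated the injured tubule-like Vegfa value was -0.095.

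A cluster that no marker list named, with 534 cells of which 467 came from the day 5 library, lay outside all comparisons. Its day 5 cells had 120 CPM of Igf1 (94 UMIs, 97.2 to 147) and 179 CPM of Igfbp4 (140 UMIs, 151 to 211). Its median cell had 1183 UMIs, and Ccdc152 and Saa3 were among its leading genes.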

How the results depend on the processing

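Of 48 calls of a member in a class, 27 held under every alternative run, 21 were lost under at least 1 and 8 of these reversed under at least 1. No paired analysis was possible because each group is 1 library. Depth limits Hgf, Areg outside lymphocytes, and every class near 50 cells at day 5.

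The member counts moved as follows, with causes not tested beyond what a stricter or looser threshold itself brings. With Lac.z, the 4 higher calls became 1 at Leiden resolution 2, 2 by gating, 2 at 200 UMIs, 12 at 10 UMIs and 2 at 2-fold, and the 4 lower calls 8 at 10 UMIs and 1 at 2-fold. At day 14 the 16 higher calls became 10 at 200 UMIs, 28 at 10 UMIs and 8 at 2-fold, and the 1 lower call 2 without doublet removal, 2 with TMM factors, 0 at 200 UMIs, 4 at 10 UMIs and 0 at 2-fold. At day 28 the 17 higher calls became 27 without doublet removal, 10 by gating, 10 at 200 UMIs and 27 at 10 UMIs, and the 6 lower calls 3 at 200 UMIs and 3 at 2-fold.

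For the pathway lists with Lac.z, the 36 higher calls became 21 at Leiden resolution 2, 23 by gating, 17 at 200 UMIs, 66 at 10 UMIs and 19 at 2-fold, and the 28 lower calls 14 at Leiden resolution 2, 13 at 200 UMIs, 53 at 10 UMIs and 9 at 2-fold. At day 14 the 90 higher calls became 52, 149 and 55 at 200 UMIs, 10 UMIs and 2-fold, and the 29 lower calls 11, 56 and 15. At day 28 the 77 higher calls became 40, 140 and 50, and the 39 lower calls 21, 65 and 21.

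These log2 ratios reversed, and the cause was not tested: Areg in macrophage-like cells at day 28 (-2.706 at a mitochondrial limit of 25%, -2.129 with no limit, -0.372 in cluster 0 alone), and Erbb3 in thick ascending limb-like cells at day 28 (0.365 with cells weighted equally, 0.233 without the richest cell). Without doublet removal, Igf1 in endothelial-like cells at day 28 was -0.192 and Igfbp4 there with Lac.z 0.207. Igfbp4 in dendritic-like cells at day 14 was -0.320 at a mitochondrial limit of 25%. By gating, Vegfa in injured tubule-like cells was -0.149 with Lac.z and -0.095 at day 28, and with cells weighted equally Vegfa in thick ascending limb-like cells at day 14 was -0.155.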
